A study of Mus musculus with 8 samples.

Results

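The Fc receptor-like genes of these microglia were examined in 8 RNA sequencing libraries, and they comprised Fcrl5, Fcrls, Fcrl1 and Fcrlb, 4 of the 55385 genes in the deposited count table. They were picked by gene symbol after their values in these libraries had been seen, so their levels and changes are given as a description without p-values, and whether they met the study's calling criterion is stated once and supports nothing further. The mouse annotation holds 6 genes of this family, and the remaining pair, Fcrla and Fcrl6, is described beside them. The cells were primary microglia, the resident macrophages of the brain, cultured from the pooled neocortices and hippocampi of wild-type newborn mice, shaken off the mixed culture and replated. The 2 groups were 4 control libraries, labelled untreated and described in the methods as given PBS, and 4 libraries of cells that had received mouse IgG at 10 µg/ml, all treated at DIV15 over 24 h. Control and IgG libraries of the same replicate number carry the same date in the labels and are treated as a pair. The labels do not tie a pair to particular mice, so the spread between libraries is a spread between cultures of pooled brains.

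Fc receptor-like proteins are members of the immunoglobulin superfamily that resemble the classical receptors for the Fc part of antibodies. Most are known from B lymphocytes, where those with a cytoplasmic tail carry tyrosine motifs that recruit kinases or phosphatases and so tune signalling. Fcrl5 is a transmembrane receptor of B cell subsets whose human counterpart binds IgG, Fcrl1 is a B cell co-receptor with activating motifs, Fcrlb is an intracellular protein, and Fcrls is a secreted protein with a scavenger receptor cysteine-rich domain that is widely used as a marker of microglia.

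In the mm10 annotation (GENCODE M21), 3 of the 4 genes lie close together on chromosome 3. Fcrls (ENSMUSG00000015852) occupies chr3:87250758-87263738 on the minus strand, Fcrl1 (ENSMUSG00000059994) chr3:87376387-87402934 on the plus strand, and Fcrl5 (ENSMUSG00000048031) chr3:87435773-87500678 on the plus strand. Fcrlb (ENSMUSG00000070524) lies apart, at chr1:170907273-170912941 on the minus strand, next to the genes of the low-affinity IgG receptors. The exons of none of the 4 overlap those of another annotated gene. Over the 30 pairs of a member with another gene of the family or with Fcgr1, Fcgr2b, Fcgr3 or Fcgr4, the longest run of identical bases in their annotated transcripts was 10 to 20 bases. Only exact runs between these genes were compared, so matches with differing bases and matches to other genes are not covered. The longest run, shared by Fcrl5 and Fcrls, is shown.
Fcrl5 and Fcrls transcripts: tactactgcacagcagacaa

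The promoter windows of all 4 genes, each 300 bases from 250 before to 50 after the RefSeq start in GRCm38.p6, were searched on both strands. The core of the interferon-stimulated response element, GAAA and again GAAA with any 2 bases between, was in none of the 4 windows and in 3.44% of all 32851 windows. TTCNNNGAA, the gamma-activated site, was also in none of the 4 and in 8.30% of all. GAGGAAGT, a binding sequence of the macrophage and B cell factor PU.1, was in the windows of Fcrl1 and Fcrlb and in 3.20% of all windows. AGGAAGT, the shorter ETS core inside that sequence, was added after the windows had been read, and it was in all 4 windows and in 9.35% of all. Of 6 related genes, Fcrla, Fcrl6, Fcgr1, Fcgr2b, Fcgr3 and Fcgr4, the ETS core was in the windows of 3 (Fcrl6, Fcgr1 and Fcgr4), the interferon element in those of Fcrla and Fcgr4, the gamma-activated site in that of Fcgr1 and the longer PU.1 sequence in that of Fcgr4. The first base of the ETS core lay at position -23 from the start for Fcrl5, -15 for Fcrl1, -75 for Fcrls and -128 for Fcrlb. The sequences show that match, in capitals, 5′ to 3′ on the strand of the gene (ACTTCCT is AGGAAGT on the opposite strand). Fcrl5 (chr3:87435532-87435772) and Fcrl1 (chr3:87376137-87376386) are shown up to the first annotated base. Fcrls (chr3:87263582-87263610) and Fcrlb (chr1:170913052-170913080) are shown only around the match, because the Fcrls window overlaps annotated exons and the Fcrlb model starts at its coding sequence.
Fcrl5: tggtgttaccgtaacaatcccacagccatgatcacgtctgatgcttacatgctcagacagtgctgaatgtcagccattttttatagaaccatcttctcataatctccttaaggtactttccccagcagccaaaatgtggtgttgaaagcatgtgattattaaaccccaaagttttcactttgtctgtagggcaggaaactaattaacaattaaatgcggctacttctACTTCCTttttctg
Fcrl1: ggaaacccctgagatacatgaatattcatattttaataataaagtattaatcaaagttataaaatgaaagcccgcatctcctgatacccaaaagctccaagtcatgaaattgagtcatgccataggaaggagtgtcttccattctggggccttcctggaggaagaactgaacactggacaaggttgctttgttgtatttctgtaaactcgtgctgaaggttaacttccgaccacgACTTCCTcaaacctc
Fcrls: acaactttgccACTTCCTttttttcctat
Fcrlb: ccaccatcttgAGGAAGTgggaatggaca
These matches are a description of the windows and do not show that any factor bound there.

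The libraries held 21287816 to 23703216 counts over genes. The mitochondrial share of those counts was 4.85% in IgG replicate 1, 5.59% in IgG replicate 3 and between 1.97% and 2.41% in the other 6 libraries. Of 18 microglial markers, 16 passed the filter on low counts, with 106 to 193 counts of Tmem119 per library, whereas Siglech had 0 to 9. Transcripts of other brain cells were present as well: the 9 markers of the oligodendrocyte lineage summed to 1198 to 1826 CPM, the scaled unit of expression used here, in control libraries and 1027 to 1716 CPM in IgG libraries. The 9 of astrocytes summed to 174 to 199 and 151 to 193 CPM, and the 8 of neurons to 39.0 to 65.1 and 35.4 to 52.3 CPM. The 5 of endothelium summed to 130 to 168 CPM in control and 123 to 139 CPM with IgG, mostly from Flt1, while Cldn5 had 0 counts in every library. The 6 of fibroblasts summed to 3.52 to 7.01 and 4.85 to 6.43 CPM. The 8 of monocytes and granulocytes summed to 667 to 1268 and 588 to 852 CPM, nearly all from Fn1, and 4 of them had 0 counts in every library. In these bulk samples, fewer cells of a type and less RNA per cell cannot be told apart.

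Because Fcrl1 and Fcrl5 are known from B cells, B lineage genes were read in the same libraries. Ighd, the immunoglobulin delta heavy chain gene, had 0 counts in every library, which allows up to 0.127 to 0.141 CPM at 3 counts, and so had Fcmr and Vpreb3. Pax5 had 0 to 2 counts, Jchain 0 to 9 and Tnfrsf13c 3 to 15. Cd79b had 0, 1, 3 and 0 counts in control and 5, 5, 4 and 3 with IgG, higher in all 4 pairs. Its groups meet at 3 counts, in control replicate 3 and IgG replicate 4, and differ there only as CPM (0.126 and 0.137). Cd79a had 6, 3, 2 and 3 counts in control and 7, 5, 3 and 7 with IgG, also higher in all 4 pairs. Ms4a1 had 5, 0, 4 and 0 counts in control and 0, 1, 0 and 0 with IgG. None of these genes passed the filter on low counts. Among the genes that did, 10.4% were higher with IgG in all 4 pairs, and 2.6% had every IgG library above every control library. The part of B lineage cells in the change of Fcrl5 was not tested. Ighm, the immunoglobulin mu heavy chain gene, passed the filter with 27, 29, 9 and 22 counts in control and 19, 35, 12 and 35 with IgG, lowest in replicate 3 of each group. Fcrl1 had 60 to 152 counts. The 17 B lineage markers summed to 38.6 to 45.1 CPM in control and 40.5 to 49.0 CPM in IgG libraries, and Cd22, with 819 to 1008 counts, made up most of that sum. None of the 2 that passed the filter met the calling criterion in edgeR, with or without the replicate block, or in DESeq2, and 0 had an unadjusted p under 0.05. Of 9 T and NK cell markers, 7 had 0 counts in every library and Klrb1c had 24 to 61.

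Fcrl5, the receptor-type member with the largest difference, was at trace levels in control cultures and higher with IgG in each of the 4 pairs. The control libraries held 17, 7, 16 and 5 counts in replicates 1 to 4, which are 0.705, 0.316, 0.670 and 0.215 CPM. The IgG libraries held 92, 25, 61 and 16 counts, which are 4.25, 1.09, 2.99 and 0.728 CPM. The groups did not overlap, although the lowest IgG library, replicate 4 at 0.728 CPM, was barely above control replicates 1 and 3. The mean went from 0.477 ± 0.247 CPM in control to 2.27 ± 1.66 CPM with IgG (SD, n = 4 each). Within pairs the ratio of IgG to control was 6.03, 3.44, 4.47 and 3.38 in replicates 1 to 4. The fitted log2 fold change was 2.22 (SE 0.60), and with the replicate block it was 2.15 (SE 0.28).

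The counting error of Fcrl5 was large at this depth. The exact 95% Poisson interval of 5 counts is 1.62 to 11.7, and that of the 16 counts in the paired IgG library is 9.15 to 26.0, so the intervals of pair 4 overlap. Those of pair 2 (2.81 to 14.4 and 16.2 to 36.9), pair 1 (9.90 to 27.2 and 74.2 to 112.8) and pair 3 (9.15 to 26.0 and 46.7 to 78.4) do not. These intervals cover counting error only.

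The level of Fcrl5 followed the date in both groups. Replicates 1 and 3 were the higher 2 of the 4 control libraries and also the higher 2 of the 4 IgG libraries, and the IgG libraries of those replicates are the ones with the higher mitochondrial share. The part of that share in the difference was not tested. Pairs 2 and 4, whose IgG libraries had mitochondrial shares of 2.21% and 1.97%, had the smaller ratios of IgG to control. With the block and without replicates 1 and 3, an alternative added after seeing the data, the log2 fold change of Fcrl5 was 1.75 (SE 0.62). The likeness of replicates 1 and 3 was not particular to Fcrl5. Between whole libraries, chi-square per degree of freedom was 6.59 for IgG replicates 1 and 3. It was 65.3 to 121 between either of these and IgG replicate 2 or 4, and 26.9 between IgG replicates 2 and 4. Control replicates 1 and 3 were also the closest control pair, with 6.40 to 17.6 for the other control pairs. The order of dates in other genes is thus not read as a trait of those genes.

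**Figure D1:**
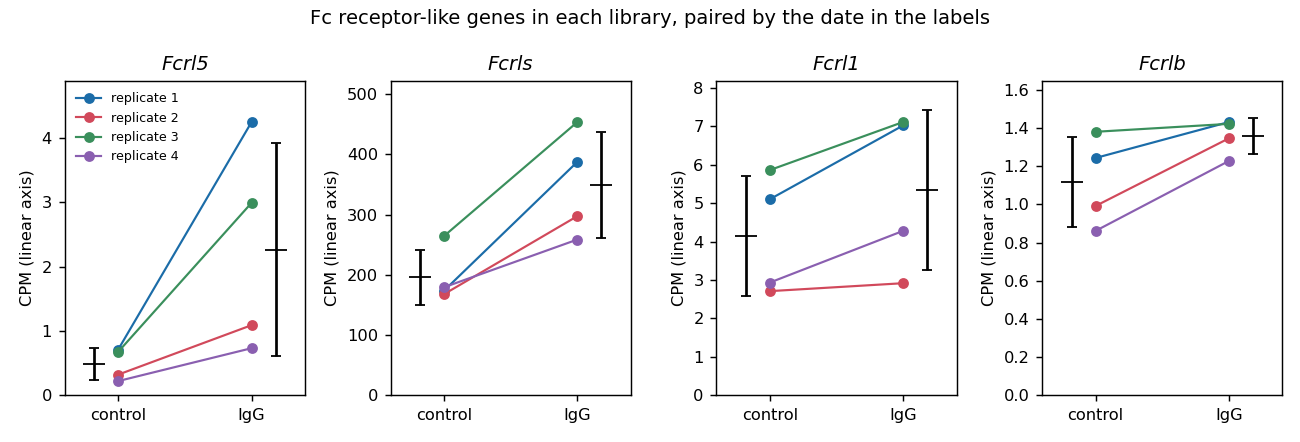
CPM (linear axes from 0) of each Fc receptor-like gene in the control and IgG libraries, with a line joining the libraries of one date and, at the sides, the mean ± SD of the 4 libraries of each group. Every line of every gene goes up, the groups are separate only for Fcrl5, and replicates 1 and 3 lie above replicates 2 and 4 for Fcrl5, Fcrl1 and Fcrlb in both groups.

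Fcrls, the secreted member and microglial marker, was the abundant gene of the family and was higher with IgG by a smaller factor. It had 4178, 3713, 6308 and 4156 counts in control replicates 1 to 4, or 173, 167, 264 and 179 CPM. With IgG it had 8388, 6841, 9250 and 5679 counts, or 388, 297, 454 and 258 CPM. Control replicate 3 stood above the other control libraries and just above IgG replicate 4, so the groups overlap by that 1 library on each side. The mean was 196 ± 45.7 CPM in control and 349 ± 88.3 CPM with IgG (SD, n = 4 each). Within pairs the ratio was 2.24, 1.78, 1.72 and 1.44 in replicates 1 to 4. The fitted log2 fold change was 0.83 (SE 0.20), and 0.83 (SE 0.11) with the block. Without replicates 1 and 3 it was 0.68 in the blocked fit.

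Fcrl1, the activating B cell co-receptor, had a small positive difference that was less than its differences between dates. Its control libraries held 123, 60, 140 and 68 counts, or 5.10, 2.71, 5.86 and 2.93 CPM. Its IgG libraries held 152, 67, 145 and 94 counts, or 7.03, 2.91, 7.12 and 4.28 CPM. IgG replicates 2 and 4 lay below control replicates 1 and 3, so the groups overlap widely. The group means were 4.15 ± 1.57 and 5.33 ± 2.08 CPM (SD, n = 4 each). The ratio within pairs was between 1.08 in replicate 2 and 1.46 in replicate 4. The fitted log2 fold change was 0.36 with an SE of 0.34, and 0.35 with an SE of 0.15 in the blocked fit.

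Fcrlb, the intracellular member, had a small difference that overlapped that of Fcrl1 within their SEs. It had 30, 22, 33 and 20 counts in control replicates 1 to 4, or 1.24, 0.992, 1.38 and 0.861 CPM. It had 31, 31, 29 and 27 counts with IgG, or 1.43, 1.35, 1.42 and 1.23 CPM. The IgG libraries were close to one another at 1.36 ± 0.094 CPM (SD), and the control libraries, with an SD of 0.236 CPM, spread more widely (n = 4 each). Control replicate 3 was above IgG replicates 2 and 4. The fitted log2 fold change was 0.28 (SE 0.23), and 0.29 (SE 0.24) with the block, so unlike that of Fcrl5, Fcrls and Fcrl1 its SE was not reduced by the block.

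The calling criterion of the study, an unadjusted p under 0.01 together with a log2 fold change beyond 0.5 in either direction, was met by 2 of the 4 genes, Fcrl5 and Fcrls, in edgeR's fit over 17537 genes, where 0.844% of all genes met it and 0.582% met it in the upward direction of these 2. With the block the same 2 genes met it, against 1.82% of all genes, and 1.48% upward. All 4 genes were higher with IgG in all 4 pairs, as were 10.4% of all genes, and the groups did not overlap for 1 gene, Fcrl5, against 2.6% of all genes with such a separation upward. As the genes were chosen with these values known, nothing is read from these shares. Moreover, Fcrl5 had only 7 and 5 counts in control replicates 2 and 4, against 16 to 92 with IgG. Its passing of the filter on low counts thus relied on the IgG libraries, where it was higher. No gene of the table had an adjusted p under 0.05 in edgeR without the block, where the smallest was 0.0771 and 1230 genes had an unadjusted p under 0.05. DESeq2 gave 53 such genes without the block and 231 with it, and edgeR with the block gave 69.

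**Figure D2:**
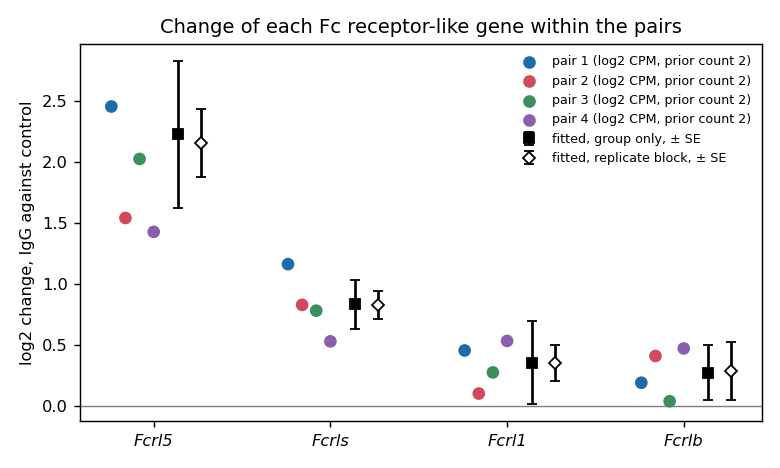
Log2 change of each gene between the IgG and control libraries of one date (coloured points, log2 CPM with a prior count of 2), beside the fitted log2 fold change ± SE without (squares) and with (diamonds) the replicate block. All points lie above 0, with those of Fcrl5 between 1.43 and 2.45, those of Fcrls between 0.53 and 1.16, and those of Fcrl1 and Fcrlb between 0.04 and 0.53.

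Levels of different genes were compared per length, as CPM per kb of annotated exon. In control libraries Fcrls stood at 84.0 ± 19.6 CPM per kb, above 96.0% of the genes tested. Fcrl1 followed at 1.17 ± 0.442, Fcrlb at 0.872 ± 0.184 and Fcrl5 at 0.137 ± 0.071 CPM per kb (SD, n = 4 each), and Fcrl5 was above only 2.38% of the genes tested. Fcrls exceeded Fcrl1 by 51.8 to 94.4 times in the individual control libraries. Fcrl1 and Fcrlb did not differ beyond their spread, with Fcrl1 higher in 3 of the 4 libraries of each group. Fcrlb exceeded Fcrl5 in all 4 control libraries. With IgG, Fcrls stood at 150 ± 37.8, Fcrl1 at 1.498 ± 0.585, Fcrlb at 1.06 ± 0.074 and Fcrl5 at 0.651 ± 0.476 CPM per kb, and Fcrl5 then overlapped Fcrlb, with a level above it in 1 of the 4 libraries. The ratio of Fcrl1 to Fcrl5, with a median of 8.47 in control libraries, had a median of 2.47 in IgG libraries, and the ranges of 7.07 to 13.3 and 1.62 to 5.74 were separate.

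The remaining family genes were not above traces. Fcrla, an intracellular relative of Fcrlb and its immediate neighbour, had 2 counts in control replicate 4 and 0 in the other 7 libraries. Fcrl6 had 4, 1, 3 and 1 counts in control and 3, 1, 7 and 3 with IgG. Neither passed the filter on low counts, and no fold is given for them.

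**Figure D3:**
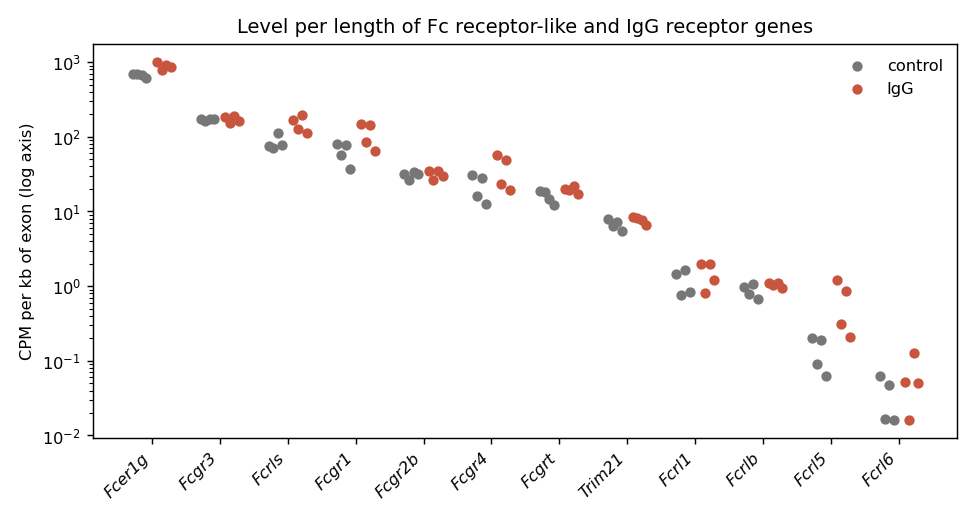
Level per length (CPM per kb of exon, log axis) of the Fc receptor-like genes and of the genes for IgG receptors and their partners, ordered by the control mean, with 1 point per library and Fcrla left out because it is at 0 in 7 libraries. Fcrls lies among the IgG receptor genes, between Fcgr3 and Fcgr1, and Fcrl1, Fcrlb and Fcrl5 lie below Trim21, the lowest of them.

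The classical IgG receptors were read from the same libraries. Per length, Fcrls (84.0 CPM per kb in control) lay below Fcgr3, the CD16 gene, at 170 ± 3.76, and overlapped Fcgr1, the high-affinity CD64 gene, at 62.8 ± 19.7. Fcgr2b, the inhibitory receptor, was at 30.8 ± 3.34, Fcgr4 at 21.9 ± 8.75, the neonatal receptor Fcgrt at 16.0 ± 3.11 and the cytosolic receptor Trim21 at 6.73 ± 1.01 CPM per kb, and the signalling chain Fcer1g was at 665 ± 39.9. None of these 7 genes met the criterion in edgeR, 2 had an unadjusted p under 0.05, and DESeq2 called 1. In the blocked fit 4 had an unadjusted p under 0.05 and DESeq2 called 2. With the block Fcgr1 and Fcgr4 met it in edgeR, with log2 fold changes of 0.78 and 0.72 and adjusted p-values of 0.0165 and 0.0329 in edgeR. The median log2 fold change of the 7 genes was 0.30, against 0.0036 over all genes tested. Without the block Fcer1g was higher by 0.42 (SE 0.10, edgeR adjusted p = 0.643) and Fcgrt by 0.30 (SE 0.14), and Trim21, Fcgr2b and Fcgr3 had log2 fold changes of 0.19, 0.03 and 0.02. Fcgr1 and Fcgr4 were also higher at the dates of replicates 1 and 3 than at the other dates in both groups, as Fcrl5 and Fcrl1 were. Fcgr4 had 38.1, 20.2, 35.5 and 16.0 CPM in control and 71.2, 29.4, 61.9 and 24.7 CPM with IgG.

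Of 19 kinases, phosphatases and adaptors known to act at the tails of such receptors, 18 passed the filter. None met the criterion in edgeR or DESeq2, with or without the block, although an unadjusted p under 0.05 was reached by 3 in edgeR without the block and by 4 in the blocked fit. Their median log2 fold change was 0.09, and 13 of the 18 were positive. Blk, a kinase of B cells, had 0 counts in every library.

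Fcrls carries a scavenger receptor cysteine-rich domain, and the genes of that domain family were read as a list of 10. Of the 6 that passed the filter, 1 met the criterion without the block, 2 met it with the block, and DESeq2 called 2 either way. Marco, a receptor by which macrophages take up particles, rose from 55.03, 35.0, 60.2 and 33.1 CPM to 137, 109, 131 and 129 CPM, with no overlap of the groups. Its log2 fold change was 1.47 (SE 0.19, edgeR adjusted p = 0.109, or 0.00912 in the blocked fit). Lgals3bp, a secreted glycoprotein with such a domain, met the criterion in edgeR with the block and not without it, at 0.68 (SE 0.096, adjusted p = 0.0331 in edgeR). The median log2 fold change of the 6 genes was 0.48, and Cd163, Cd6, Dmbt1 and Scara5 did not pass the filter.

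As a marker of microglia, Fcrls was set beside the 16 tested microglial markers. Of these, 2 met the criterion in edgeR without the block, Aif1, the gene of the marker protein Iba1, and Tmem119, and only Aif1 met it with the block. Aif1 had a log2 fold change of 0.67 (SE 0.16, edgeR adjusted p = 0.615, and 0.0331 with the block) and Tmem119 of 0.54 (SE 0.15, edgeR adjusted p = 0.692, and 0.367 with the block). The median of the 16 was 0.14, with 13 of them positive, and the log2 fold change of Fcrls was 0.83. Among markers of other brain cells, the log2 fold change was positive for 0 of 9 tested oligodendrocyte lineage markers (median -0.11), 1 of 9 of astrocytes (median -0.13) and 2 of 7 of neurons (median -0.14). None of these 25 met the criterion in edgeR, with or without the block; 0 had an unadjusted p under 0.05 without the block and 2 with it, and DESeq2 called 0 without the block and 1 with it. The log2 fold change was positive for 3 of 4 tested endothelial markers (median 0.53), 3 of 4 of fibroblasts (median 0.04) and 1 of 3 of monocytes and granulocytes (median -0.42). None of these 11 met the criterion in edgeR's group-only fit, in which an unadjusted p under 0.05 was reached by 1, and DESeq2 called 0 with or without the block. The endothelial gene Cdh5 met it in edgeR with the block, at 0.98 (SE 0.24, adjusted p = 0.221 in edgeR), from means of 0.892 CPM in control and 1.76 CPM with IgG. The part of these cells in the change of Fcrls was not tested. Of 9 tested markers of border-associated macrophages, Ms4a7 met the criterion without the block and Ms4a7, Siglec1 and Cbr2 with it. Ms4a7 had a log2 fold change of 0.60 (SE 0.13, edgeR adjusted p = 0.511, and 0.0381 with the block), while the blocked adjusted p in edgeR was 0.111 for Siglec1 and 0.220 for Cbr2. The whole list of 11 summed to 1361 to 1721 CPM in control and 1589 to 2465 CPM with IgG, and its genes differed widely: Mrc1 had 938 to 2193 counts, Folr2 176 to 301 and Pf4 96 to 172, while Lyve1 and Cd163 had at most 5. The part of such cells in the change of Fcrls was not tested.

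The genes around the members were read to see whether they moved alike. Within 250 kb there were 36 other annotated genes, of which 17 passed the filter and 14 of those are protein-coding. None of the 17 met the criterion in edgeR or DESeq2 without the block, and 1 had an unadjusted p under 0.05. With the block 1 met it, Fcgr4, in both tools. On chromosome 3, Cd5l, which encodes a secreted macrophage protein and ends 5314 bases before the start of Fcrl1, had 2.94, 1.76, 5.11 and 1.68 CPM in control and 5.83, 2.30, 5.79 and 2.46 CPM with IgG. Its log2 fold change was 0.50 (SE 0.43, edgeR adjusted p = 0.754), and like Fcrl1 it was highest at the dates of replicates 1 and 3 in both groups. Etv3, which encodes a transcriptional repressor and is the next tested gene after Fcrl5 at a distance of 24729 bases, had a log2 fold change of 0.03 (SE 0.13). Kirrel, Arhgef11, Lrrc71 and Pear1 had values of 0.03, -0.11, 0.06 and 0.37. On chromosome 1, Olfml2b, Atf6, Dusp12, Gm26620 and Sdhc had values of -0.03, 0.32, 0.03, -0.09 and 0.18. The median of all 17 neighbours was 0.03.

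**Figure D4:**
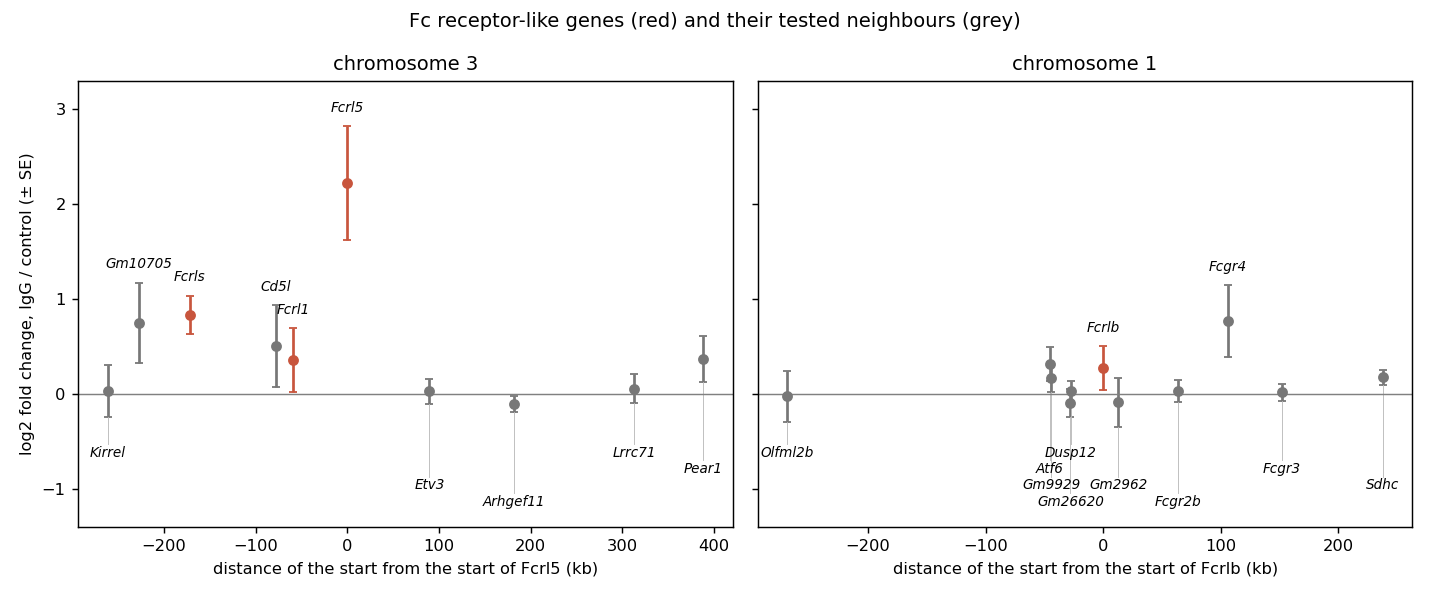
Fitted log2 fold change ± SE of the Fc receptor-like genes (red) and of the 17 tested neighbours (grey), against the distance of each gene's start from that of Fcrl5 on chromosome 3 (left) and of Fcrlb on chromosome 1 (right). Fcrl5 stands at 2.22, while the 7 tested neighbours on chromosome 3 lie between -0.11 and 0.75.

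For each member, the 5 tested genes with the most similar pattern over the 8 libraries were found, as the smallest root mean square difference between log2 CPM values centred on each gene's mean. For Fcrl5 these were Ms4a4c, Oasl1, Fgl2, Gm12250 and Cxcl9, with differences of 0.29, 0.35, 0.36, 0.37 and 0.38 log2 units, against a median of 1.26 over all genes tested. Oasl1 and Cxcl9 are known as interferon-inducible genes, Fgl2 encodes a fibrinogen-like protein of macrophages, and Ms4a4c encodes a tetraspan membrane protein. Ms4a4c had 7.88, 4.83, 7.87 and 2.45 CPM in control and 26.7, 9.00, 24.6 and 6.33 CPM with IgG. It was picked for its likeness to Fcrl5 over these 8 libraries, so a shared pattern follows from the choice. Both genes were higher with IgG in every pair, with replicates 1 and 3 high and replicate 4 lowest in each group.

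For Fcrls the most similar genes were Tgfbi, Chil1, Trpm2, the pseudogene Gm6063 and Klhl15, with differences of 0.12 to 0.18 log2 units against a median of 0.55. Tgfbi, which encodes an extracellular matrix protein, had 93.1, 81.8, 114 and 83.4 CPM in control and 166, 120, 196 and 121 CPM with IgG, and like Fcrls it was highest in replicate 3 in each group. For Fcrl1 they were Bcl2a1a, Pld4, Gm33370, Zfp992 and Gdf3, with differences of 0.13 to 0.19 against a median of 0.57. Bcl2a1a, an anti-apoptotic gene with near-identical copies in the mouse genome and therefore uncertain counts, was at 87.1, 52.5, 98.7 and 57.3 CPM in control and 136, 65.1, 122 and 73.4 CPM with IgG. Pld4, which encodes a lysosomal exonuclease of myeloid and B cells, had the order of dates of Fcrl1 in control libraries, with 281, 165, 312 and 199 CPM, and in IgG libraries, with 410, 213, 431 and 277 CPM.

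For Fcrlb the most similar genes were Psme2, the pseudogene Gm13577, Ikbke, Psmb8 and H2-M3, with differences of 0.06 to 0.08 against a median of 0.32. Psme2 and Psmb8 encode parts of the proteasome used in antigen presentation, and Psmb8 had 129, 96.8, 126 and 87.7 CPM in control and 149, 125, 147 and 128 CPM with IgG. As Fcrlb varied little, with an SD of 0.25 log2 units over the 8 libraries, small differences are easily reached by other genes with little variation. The genes most like each member were chosen for their pattern over these 8 libraries. Their likeness to the members thus follows from the choice, and no test of their changes is given.

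**Figure D5:**
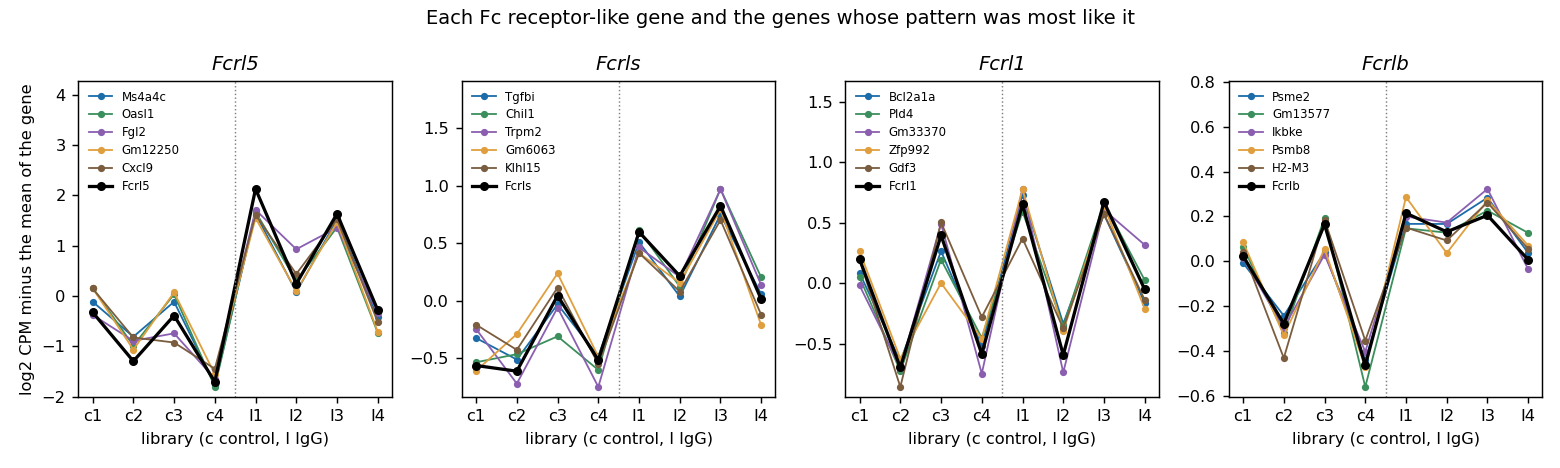
Log2 CPM minus the gene's mean over the 8 libraries, for each Fc receptor-like gene (black) and the 5 tested genes most like it (coloured), with control libraries 1 to 4 on the left of the dotted line and IgG libraries 1 to 4 on the right. In Fcrl5 and Fcrl1 and the genes like them, replicates 1 and 3 lie above replicates 2 and 4 in each group, with the exception of Cxcl9, in which control replicate 3 is not above control replicate 2.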

How the data were processed

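Poly(A) RNA of 8 cultures, 4 control and 4 IgG, was sequenced. The authors deposited raw counts of reads per Ensembl gene; per the labels they used HISAT2 2.2.1, SAMtools 1.12, Picard 2.26.3, featureCounts and GRCm38, and the annotation, strand and multi-mapping settings are not given in the sources used here. Symbols and coordinates came from GENCODE M21, which held 55144 of the 55385 identifiers. No pair of libraries of a group agreed within sampling noise (chi-square per degree of freedom at least 5.00). Counts were fitted with edgeR 4.0.16 (R 4.3.3; TMM scaling, filterByExpr, quasi-likelihood test, group only) over 17537 genes, with Benjamini-Hochberg adjustment. CPM are the deposited counts scaled by the TMM-adjusted library size.

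The 4 genes and all lists were chosen with earlier results of these data known. Genes named were the members, all Fc receptor-like and IgG receptor genes, genes of other lists past the criterion with or without the block (at most 6 a list), protein-coding neighbours that passed the filter, and the 5 genes most like each member. Marker and list genes outside this rule that are named for their counts were chosen after their values were seen. The replicate number, tied to a date by the labels, was a block in an alternative: deviations from the group means correlated at 0.41, 0.33, 0.26 and 0.32 between libraries of the same number, and at -0.34 to 0.20 otherwise, over 15669 genes. DESeq2 1.42.0, other scalings and filters, and fits without single libraries were further alternatives. The test was tried on simulated counts for the comparison of IgG with control, with 200 of 17312 genes changed by a log2 fold of 1. At an adjusted p under 0.05 and without the block it recovered 76.5%, with 4 false calls. With date differences of an assumed size drawn for each gene (17297 genes), it recovered 6.5% without and 72% with the block at that threshold. Recovery under the unadjusted calling criterion was not simulated. At these depths 3 counts are 0.127 to 0.141 CPM.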

Additional observations from a re-analysis of the deposited data

Results flagged for a closer look

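Over 90 groups of 4 libraries (45 named genes in control and in IgG libraries), 4 had 1 library whose gap to the nearest other, relative to the range of the group, was above Dixon's 95% critical value for 4 samples. Chance flags about 1 in 20 groups, which is close to this number. Fcrls was at 264 CPM in control replicate 3 and at 167 to 179 CPM in the other 3 control libraries. Fcgr3 was at 286 CPM in control replicate 2, against 297 to 299 CPM in the others. Sdhc, a neighbour of Fcrlb, was at 90.5 CPM in control replicate 2, against 86.3 to 86.9 CPM. Lrrc71, a neighbour of Fcrl5, was at 16.8 CPM in IgG replicate 4, against 10.9 to 11.8 CPM in the other IgG libraries.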

How the results depend on the processing

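The log2 fold changes of Fcrl5, Fcrls, Fcrl1 and Fcrlb stayed positive under every alternative run, 24 for Fcrl5, which fails a filter of 10 counts in every library, and 25 for each of the others. Other scalings, filters, DESeq2 and the block gave 2.09 to 2.24 for Fcrl5, 0.72 to 0.84 for Fcrls, 0.24 to 0.36 for Fcrl1 and 0.18 to 0.29 for Fcrlb, with the lowest from total counts alone, which shift the median of all genes to -0.094. Leaving out single libraries or pairs gave 1.72 (without IgG replicate 1) to 2.52 for Fcrl5, 0.68 to 1.01 for Fcrls, 0.19 to 0.57 (without control replicate 3) for Fcrl1 and 0.15 to 0.39 for Fcrlb. The blocked fits without 1 pair and these alternatives were chosen after seeing the data: the block without replicates 1 and 3 gave 1.75 for Fcrl5, 0.68 for Fcrls, 0.34 for Fcrl1 and 0.47 for Fcrlb, and leaving out mitochondrial genes before scaling gave 2.22, 0.84, 0.36 and 0.28.

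The count of all genes past the criterion depended on the choices; the cause was not tested. It was 148 without the block and 320 with the replicate block, 284 with every gene of at least 1 count, 350 in DESeq2 with the block, 0 with an adjusted p under 0.05 and 69 with the block and an adjusted p under 0.05. Without single libraries or pairs it was 56 (without replicate 3) to 610 (without IgG replicate 4), and 93 without control replicate 2, 89 without control replicate 4, 88 without IgG replicate 1, 348 without IgG replicate 2 and 87 without IgG replicate 3. With the block and without 1 pair it was 215 to 762, among them 326 without replicate 2, and 327 without replicates 1 and 3. With total counts alone 60 were higher and 82 lower, against 102 and 46 with TMM. The replicate block also raised the calls among IgG receptors from 0 to 2, among scavenger receptor cysteine-rich genes from 1 to 2 and among neighbours from 0 to 1. It left the calls among the kinases, phosphatases and adaptors at 0, and the calls among microglial and border-associated markers are given beside them. Depth limits Fcrl5 and Fcrlb most, with under 40 counts in 6 and 8 libraries.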
